A study of Homo sapiens with 15 samples.

Results

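DNA replication genes encode the proteins that license and open origins, copy both strands, supply deoxynucleotides and repack the new DNA into nucleosomes. The 43 genes described here were taken from a list of named replication factors, matched by gene symbol, out of 57820 gene identifiers in the expression files. The rule that names them uses no measured value, but the genes were chosen with earlier results of these data known. All 43 were above 0 in every library, so none was lost to the filter on low values. RNA was sequenced from 15 libraries of the acute myeloid leukaemia lines MOLM-13, U937 and HL-60, which carried either the empty vector pLKO or a short hairpin RNA against RNF5 (shRNF5). RNF5 is a membrane-bound ubiquitin ligase.

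The libraries numbered 3 pLKO and 2 shRNF5 in MOLM-13, 2 and 2 in U937, and 3 and 3 in HL-60. No treatment beyond the construct is given for any group. The U937 replicates are numbered 2 and 3 for pLKO and 1 and 3 for shRNF5. The MOLM-13 shRNF5 libraries are replicates 1 and 2 in the sample labels, which are followed here, and 2 and 3 in the names of their deposited files. The sample labels place RNA collection 7 days after knockdown, and the design text of the series places it 5 days after. The labels do not say that replicates were separate cultures, so every p-value measures only the spread between these libraries, which may be technical. The hairpin that was sequenced is not named.

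In each cell cycle, the origin recognition complex, CDC6 and CDT1 load the MCM2-7 helicase onto DNA in G1 phase. The helicase is opened in S phase by CDC45, the GINS complex and MCM10. The clamp PCNA, placed by replication factor C, tethers DNA polymerases delta and epsilon, while polymerase alpha and primase start each strand. Transcription of many of these genes is turned on by E2F factors as cells leave G1, so their RNA is widely used as a mark of cells in or near S phase. In bulk RNA, fewer cells in S phase and less RNA per cell cannot be told apart.

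Values are normalized read counts, which the authors scaled per library within each line. Changes are log2 fold changes of shRNF5 over pLKO on the log2(value + 1) scale. A gene was called where the Benjamini-Hochberg adjusted p-value of limma, over all genes tested in the line, was under 0.1 and the absolute log2 fold change was over 0.4. RNF5 itself fell in every line and its groups did not overlap. It read 1223, 1017 and 1020 in MOLM-13 pLKO against 76 and 81 in shRNF5, 648 and 843 against 46 and 74 in U937, and 506, 689 and 545 against 37, 133 and 43 in HL-60. The log2 fold changes were −3.77, −3.64 and −3.25, with adjusted p-values of 0.00034, 0.0029 and 0.0012.

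Libraries held an estimated 9721070 to 63760000 counted reads. Both extremes were in MOLM-13, where pLKO held 13442600, 15269700 and 9721070 and shRNF5 held 63760000 and 24353700. Each MOLM-13 shRNF5 library was thus deeper than every pLKO library of that line. Depth and construct cannot be separated there, and the effect of depth on the results was not tested. In U937 and HL-60 the depths of the groups overlapped. The myeloid markers PTPRC, CD33, SPI1 and CEBPA were present in every group. Of 12 markers of T, B, erythroid, epithelial and stromal cells, 9 were at 0 in every library. Their summed value was 925 to 1191 in MOLM-13 pLKO and 1055 to 1275 in shRNF5, all of it from PAX5. In HL-60 it was 0. CD68 was listed at 0 in all lines. The part of these transcripts in the results was not tested.

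Promoter sequences are shown because E2F sites are the best known shared feature of replication promoters. The motif letters TTTCCCGC, TTTCGCGC, TTTGCCGC and TTTGGCGC were sought on both strands in windows from 250 bases before to 50 bases after each RefSeq start site (GRCh38.p14). At least 1 window held the motif in 20 of the 39 genes that had a window (51.3%), against 3.99% of all genes. GINS4, MCM4, MCM5 and POLD3 had no window. The following stretches of 30 bases lie upstream of the start site, are written 5′ to 3′ on the strand of the gene and carry the motif in capitals. They come from a subunit of the fork protection complex, the catalytic subunit of polymerase alpha, the clamp, a clamp loader subunit, 2 helicase subunits and a substrate receptor of a ubiquitin ligase.
TIPIN, chr15:66356733-66356762, minus strand: ccccgcacggaTTTGGCGCcaaacgctgcg
POLA1, chrX:24693770-24693799, plus strand: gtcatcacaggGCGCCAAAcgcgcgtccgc
PCNA, chr20:5126663-5126692, minus strand: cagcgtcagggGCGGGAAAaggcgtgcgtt
RFC3, chr13:33818083-33818112, plus strand: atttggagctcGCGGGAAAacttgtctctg
MCM6, chr2:135876577-135876606, minus strand: agggctttgcaTTTGGCGCgaaatcccttt
MCM7, chr7:100101566-100101595, minus strand: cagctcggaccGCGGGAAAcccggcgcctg
DTL, chr1:212035718-212035747, plus strand: caatcagagagcgtgacgtcagTTTGGCGC
In the TIPIN and MCM6 stretches the motif overlaps a second match on the other strand. Over the whole window the same letters were found for CDC6, CLSPN and GINS3, but no match there lay wholly upstream of the start site. They were not found for RRM2, TK1 or MCM10. A match describes the letters in a window and does not show that a factor bound there.

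After RNF5 knockdown the replication genes lay mostly below their controls in MOLM-13, mostly above them in U937 and on both sides of them in HL-60. In MOLM-13 their median log2 fold change was −0.35 and 40 of 43 were below 0. In U937 the median was 0.65 and 39 of 43 were above 0. In HL-60 the median was −0.07, with 16 above and 27 below 0. Over all genes tested the medians were 0.01, 0.00 and 0.00, and 50.8%, 50.3% and 50.2% of genes were above 0. A total of 36 genes were below 0 in MOLM-13 and above 0 in U937, 2 were below 0 in all lines, and RRM2 alone was above 0 in all lines.

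The control libraries were themselves unequal in U937. Of 43 genes, 40 were lower in pLKO replicate 2 than in pLKO replicate 3, with a median difference of 0.61 on the log2 scale, where 50.2% of all genes were lower in replicate 2. The values of the 43 genes summed to 66746 and 106584 in these pLKO libraries and to 154545 and 127832 in shRNF5. Without pLKO replicate 2 the U937 median was 0.30 and 36 genes were above 0, and without pLKO replicate 3 it was 0.92. In MOLM-13 the sums were 143931, 166618 and 131957 in pLKO and 128525 and 107038 in shRNF5, and all 43 genes were higher in shRNF5 replicate 1 than in replicate 2. In HL-60 the sums ran from 107160 to 120261 in pLKO and from 107576 to 115895 in shRNF5, and they overlapped.

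**Figure D1:**
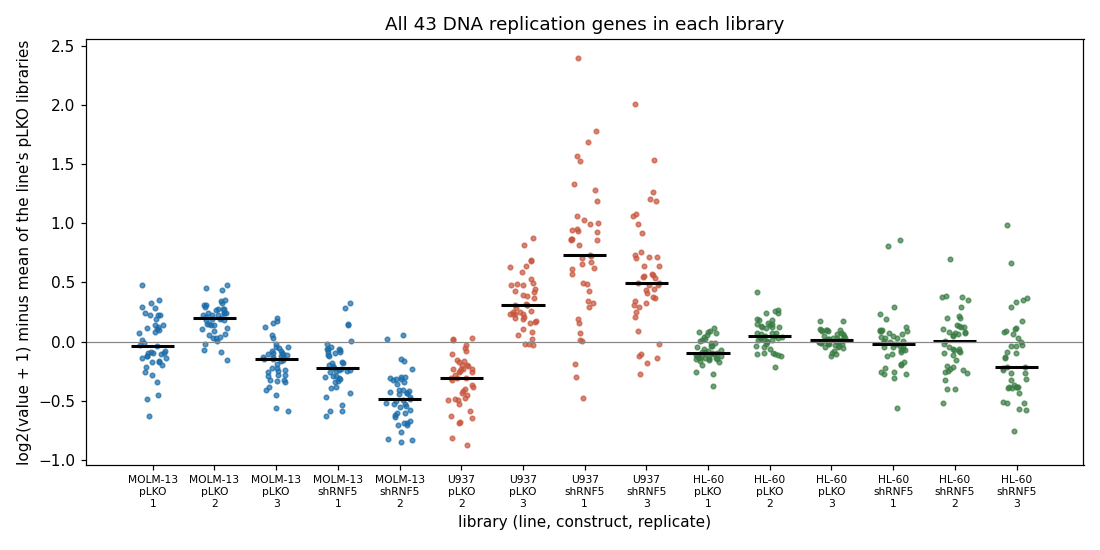
Each point is 1 of the 43 DNA replication genes in 1 library, as log2(value + 1) minus the mean of the pLKO libraries of its line, and the bars are medians over the 43 genes. In U937 the medians were −0.31 and 0.31 in the pLKO libraries and 0.73 and 0.50 in the shRNF5 libraries, and in MOLM-13 they were −0.22 and −0.48 in the shRNF5 libraries.

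By the limma test, 0 of 43 genes were called higher and 0 lower in MOLM-13, where 1.03% of all genes were called higher and 1.01% lower. At an unadjusted p under 0.05, 14 were lower and 0 higher, beside 8.46% and 8.53% of all genes. In 21 genes both shRNF5 libraries lay below all pLKO libraries, and in 0 they lay above, beside 19.2% and 19.6% of all genes. The smallest adjusted p was 0.104, for RFC4. With library weights 20 genes were called lower, beside 8.48% of all genes. With the replicate number as a block, 3 were called lower under the label numbers, beside 2.72% of all genes, and 19 under the file-name numbers, beside 9.28%. The count of 0 therefore depended on the weighting and on the block.

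In U937, 8 of 43 genes were called higher and 0 lower, beside 6.92% and 8.74% of all genes. At an unadjusted p under 0.05, 21 were higher and 0 lower, beside 12.8% and 14.3% of all genes. Both shRNF5 libraries lay above both pLKO libraries in 33 genes and below them in 3, beside 29.0% and 30.2% of all genes. Without pLKO replicate 2, shRNF5 replicate 1 or shRNF5 replicate 3, 0 of 43 were called, and at most 2 of 13165 genes in the whole table were called higher. The median log2 fold changes of the 43 genes were then 0.30, 0.50 and 0.73, with 36, 37 and 40 genes above 0. Without pLKO replicate 3, the median log2 fold change of the 43 genes was 0.92 and 40 were above 0.

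In HL-60, 2 of 43 genes were called higher and 1 lower, beside 13.6% and 12.3% of all genes. At an unadjusted p under 0.05, 3 were higher and 6 lower, beside 18.0% and 17% of all genes. All shRNF5 libraries lay above all pLKO libraries in 6 genes and below them in 6, beside 19.9% and 18.6% of all genes. Each of these HL-60 shares was at or under the share of all genes.

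**Figure D2:**
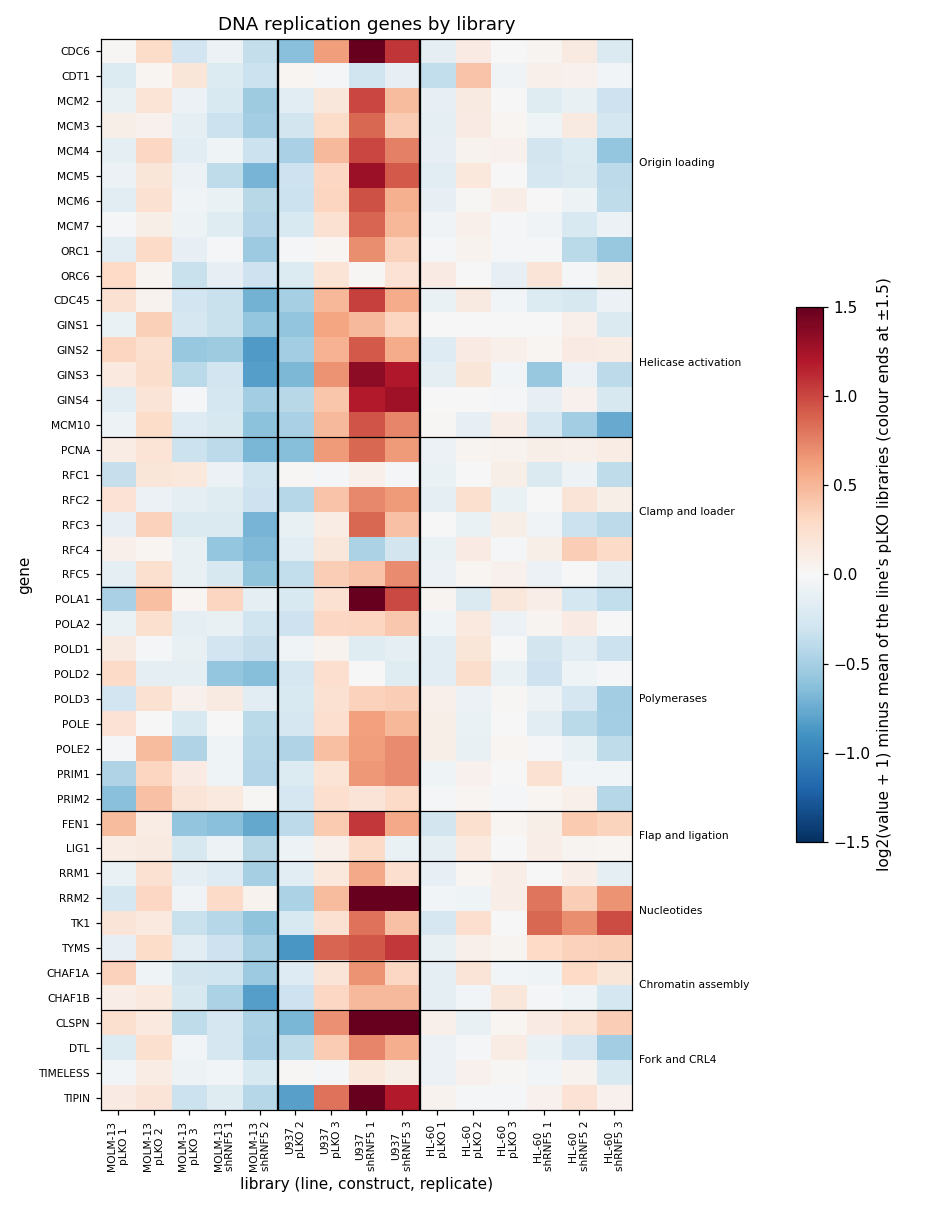
Colours give log2(value + 1) of each DNA replication gene (rows, grouped by role) in each library (columns) minus the mean of the pLKO libraries of the line, with colour ending at ±1.5. U937 shRNF5 columns are mostly above and MOLM-13 shRNF5 columns mostly below the control mean, and the U937 pLKO columns differ from each other in most rows.

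The origin loading genes encode the origin recognition subunits ORC1 and ORC6, the loaders CDC6 and CDT1, and the 6 subunits of the MCM2-7 helicase. In U937, 2 of the 10 were called higher and 0 lower, beside 6.92% and 8.74% of all genes. CDC6, on chromosome 17 (GRCh37 chr17:38444131-38460909), read 386 and 927 in U937 pLKO and 1780 and 1264 in shRNF5. Both shRNF5 values were above both controls, although the controls were far apart, and the log2 fold change was 1.32 ± 0.38 (SE) with an adjusted p of 0.063. Without pLKO replicate 2 the CDC6 change was 0.69, and without pLKO replicate 3 it was 1.96. In MOLM-13 CDC6 read 2257, 2700 and 1829 in pLKO and 2096 and 1738 in shRNF5. In HL-60 it read 1642, 1973 and 1818 against 1862, 1988 and 1554. The groups overlapped in both of these lines.

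MCM5, on chromosome 22 (GRCh37 chr22:35796127-35821424), read 1089 and 1666 in U937 pLKO and 3267 and 2552 in shRNF5, a log2 fold change of 1.10 ± 0.28 (adjusted p 0.045). It showed the largest absolute change of the loading genes in MOLM-13, where it read 4248, 5108 and 4232 in pLKO and 3462 and 2772 in shRNF5. Both shRNF5 values were below all controls there, with a log2 fold change of −0.54 ± 0.16 that did not pass the test (adjusted p 0.17). In HL-60 it read 3620, 4485 and 4021 against 3369, 3464 and 3074, and the groups again did not overlap. The HL-60 log2 fold change was −0.29 ± 0.12 with an adjusted p of 0.12.

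MCM4, the helicase subunit with the highest values in MOLM-13, read 14884, 20318 and 14643 in pLKO and 15744 and 13185 in shRNF5 there. It read 4111 and 8106 in U937 pLKO against 11517 and 9762 in shRNF5. In HL-60 it read 6290, 7068 and 7160 against 5642, 5926 and 4575. The HL-60 groups did not overlap, and the log2 fold change of −0.35 ± 0.13 had an adjusted p of 0.087 but was under the fold limit. The other 4 helicase subunits MCM2, MCM3, MCM6 and MCM7, with MCM4 and MCM5, were all above 0 in U937, below 0 in MOLM-13 and below 0 in HL-60. CDT1, which loads the helicase and is destroyed in S phase, was the only loading gene below 0 in U937 (log2 fold change −0.21). A lncRNA on the opposite strand shares 23.6% of the exonic bases of MCM2, and whether counting used the strand is not given in the sources used here.

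The helicase activation genes encode CDC45, the GINS complex (GINS1 to GINS4) and MCM10, which together turn the loaded helicase into a moving one. In MOLM-13 all 6 were below 0, between −0.69 and −0.39. In U937 all 6 were above 0, between 0.41 and 1.27, and 2 were called higher, beside 6.92% of all genes. GINS3 (GRCh37 chr16:58328984-58440051) had the largest U937 change of the group, from 103 and 265 in pLKO to 419 and 382 in shRNF5. Its groups did not overlap and its log2 fold change was 1.27 ± 0.43 (adjusted p 0.093). Without pLKO replicate 2 the GINS3 change was 0.59, and without pLKO replicate 3 it was 1.95. A lncRNA on the opposite strand shares 10.9% of its exonic bases. The other gene called in U937 was GINS4, which is named because it was called and lies outside the rule for giving values, after its values were seen. It read 341 and 611 in pLKO and 1041 and 1101 in shRNF5 (1.23 ± 0.31, adjusted p 0.047; 0.81 to 1.65 leaving out 1 library), and a lncRNA on the opposite strand shares 21.0% of its exonic bases.

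GINS2 had the largest MOLM-13 change of the group, from 1066, 1005 and 576 in pLKO to 588 and 473 in shRNF5. Its lowest control lay between the shRNF5 values, and the log2 fold change of −0.69 ± 0.28 did not pass (adjusted p 0.27). In U937 it read 329 and 684 against 901 and 697, and in HL-60 438, 548 and 530 against 513, 548 and 544. GINS3 read 855, 932 and 584 in MOLM-13 pLKO against 635 and 436 in shRNF5. HL-60 libraries gave 533, 665 and 571 against 397, 551 and 447, which overlapped. Each was therefore below its control mean in MOLM-13 and above it in U937.

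MCM10 (GRCh37 chr10:13203558-13253110), a factor that binds the helicase as the origin opens, was the only replication gene called lower in HL-60. It read 1011, 915 and 1066 in pLKO and 835, 695 and 589 in shRNF5. All shRNF5 values were below all controls, with a log2 fold change of −0.51 ± 0.15 (adjusted p 0.036). In U937 it moved the other way, from 317 and 619 to 853 and 738, and in MOLM-13 it read 2017, 2573 and 1865 against 1809 and 1387. The HL-60 call was lost without pLKO replicate 1, pLKO replicate 3 or shRNF5 replicate 3, and the adjusted p over the leave-one-out fits ran from 0.020 to 0.14.

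The clamp PCNA, a ring that holds polymerases on DNA, and the replication factor C subunits that open it were not called in any line. PCNA read 9833, 10504 and 7252 in MOLM-13 pLKO and 6917 and 5647 in shRNF5, so both shRNF5 values were below all controls. In U937 it read 5200 and 12654 in pLKO and 14729 and 12642 in shRNF5, and the groups overlapped by a small margin. For HL-60 the libraries gave 7913, 8658 and 8706 against 8982, 8878 and 9073. RFC4 went against its complex in U937. It read 1322 and 1668 in pLKO against 1068 and 1231 in shRNF5 there, and 1698, 1648 and 1499 against 1076 and 1015 in MOLM-13. In HL-60 the values were 1299, 1516 and 1382 against 1489, 1810 and 1709. Its log2 fold changes were −0.37 ± 0.25, −0.63 ± 0.14 and 0.25 ± 0.12, with adjusted p-values of 0.36, 0.10 and 0.17.

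Polymerase alpha and primase, and polymerases delta and epsilon, gave 1 call among 9 genes, higher in U937, where 6.92% of all genes were called higher. POLA1 (GRCh37 chrX:24711990-25015103), the catalytic subunit of polymerase alpha, read 987 and 1363 in U937 pLKO and 3745 and 2309 in shRNF5. Both shRNF5 values were above both controls, with a log2 fold change of 1.34 ± 0.29 (adjusted p 0.031). In MOLM-13 it read 1166, 2235 and 1670 against 2042 and 1471, and its direction depended on the processing. HL-60 libraries gave 1825, 1531 and 1995 against 1902, 1477 and 1374. POLD2, a regulatory subunit of polymerase delta, read 2777, 2051 and 2078 in MOLM-13 pLKO against 1518 and 1464 in shRNF5, the largest change of the group there (−0.61 ± 0.17, adjusted p 0.16). In U937 it read 2133 and 3029 against 2547 and 2237. For HL-60 the libraries gave 2930, 3943 and 3060 against 2654, 3148 and 3209.

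POLE, the catalytic subunit of polymerase epsilon, read 3031, 2675 and 2879 in HL-60 pLKO and 2536, 2163 and 2006 in shRNF5. The groups did not overlap, and the log2 fold change of −0.36 ± 0.13 (adjusted p 0.065) was under the fold limit. U937 libraries gave 1416 and 2022 against 2595 and 2391, and in MOLM-13 4977, 4272 and 3656 against 4286 and 3212. In U937 the delta subunits POLD1 and POLD2 were below 0 (−0.16 and −0.09, with POLD2 above 0 after a length correction), whereas the other 7 of this group were above 0. An unprocessed pseudogene on the same strand shares 12.9% of the exonic bases of PRIM2, and reads from the copy could have been counted either way.

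**Figure D3:**
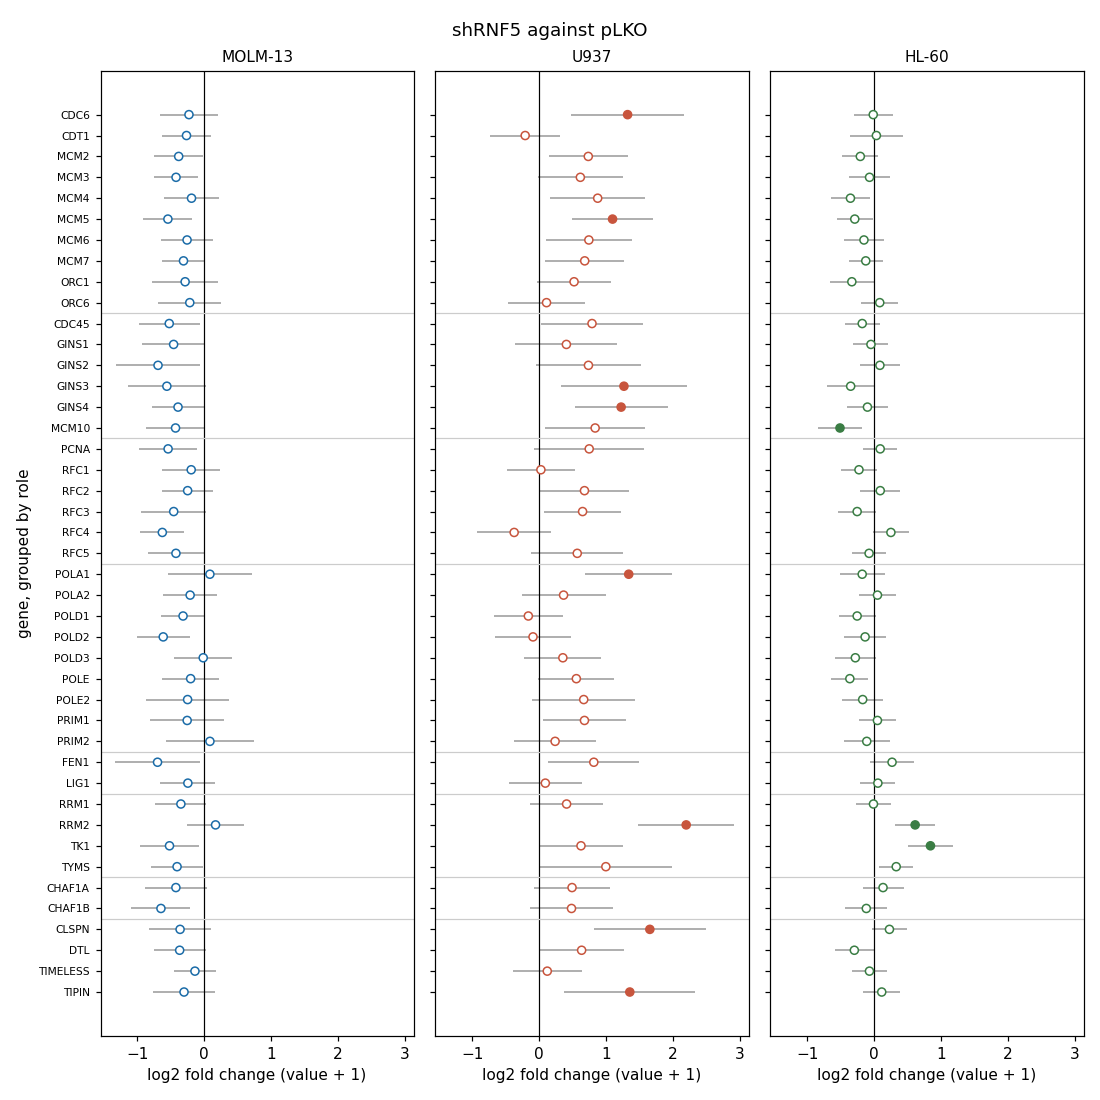
Log2 fold changes of shRNF5 against pLKO (points) with 95% confidence intervals (lines) for the 43 DNA replication genes in each line, all on the same axis, with filled points for called genes. In U937, 8 points are filled and all 8 lie above 0, in HL-60 RRM2, TK1 and MCM10 are filled, and in MOLM-13 none is filled.

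FEN1, which trims flaps from Okazaki fragments, had the lowest MOLM-13 log2 fold change of all 43 genes, −0.70 ± 0.28 (adjusted p 0.26). It read 4671, 3612 and 2224 in MOLM-13 pLKO and 2167 and 1967 in shRNF5. The controls spanned a wide range, and the lowest of them was near the shRNF5 values. For U937 the libraries gave 1013 and 1759 against 2793 and 1987, and in HL-60 2226, 3188 and 2756 against 2868, 3527 and 3392. LIG1, the ligase that seals the fragments, was between −0.24 and 0.09 in the 3 lines and was not called.

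The nucleotide supply genes included the only replication genes called higher in HL-60. RRM2 (GRCh37 chr2:10260825-10351851) is the small subunit of ribonucleotide reductase, whose level rises in S phase. It read 2730 and 5297 in U937 pLKO and 20003 and 15298 in shRNF5. Both shRNF5 values were far above both controls, and the log2 fold change was 2.20 ± 0.33 (adjusted p 0.014), the largest of the 43 genes in U937. In HL-60 the values were 4729, 4646 and 5186 in pLKO and 8469, 6282 and 7705 in shRNF5. The groups did not overlap there either, with a log2 fold change of 0.62 ± 0.14 (adjusted p 0.012). In MOLM-13 it read 4006, 5930 and 4634 against 5845 and 4980, which overlapped. RRM2 was the only replication gene called in more than 1 line. It was called in 10 of 10 other processing settings in U937 and in 11 of 11 in HL-60, leave-one-out fits aside, and in 6 of 6 leave-one-out fits in HL-60 but 1 of 4 in U937.

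TK1 (GRCh37 chr17:76170172-76183314), the thymidine salvage kinase of S phase, read 659, 940 and 787 in HL-60 pLKO and 1427, 1275 and 1555 in shRNF5. Every shRNF5 value was above every control, and the log2 fold change of 0.84 ± 0.15 (adjusted p 0.0055) was the largest of the 43 genes in HL-60. In U937 the values were 527 and 726 against 1088 and 840. In MOLM-13 it read 1771, 1717 and 1225 against 1148 and 1020, so both shRNF5 values were below all controls, at −0.52 ± 0.19 (adjusted p 0.24). TK1 was called in HL-60 in 11 of 11 other settings and 6 of 6 leave-one-out fits.

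TYMS, which makes thymidylate, read 6429, 7324 and 7188 in HL-60 pLKO and 8551, 8875 and 8904 in shRNF5. The log2 fold change of 0.33 ± 0.12 (adjusted p 0.068) was under the fold limit although the groups did not overlap. RRM1, the large reductase subunit, was at −0.01 in HL-60 and 0.41 in U937. The exons of ENOSF1 on the opposite strand share 39.9% of the exonic bases of TYMS. Processed copies in the annotation carry the names of RRM2, TYMS, PCNA and 6 other genes, so their values are uncertain as far as reads were shared with the copies.

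CHAF1A and CHAF1B encode the large and middle subunits of chromatin assembly factor 1, which deposits histones behind the fork. Neither was called in any line. CHAF1A read 4242, 3181 and 2744 in MOLM-13 pLKO and 2706 and 2285 in shRNF5, 1196 and 1565 against 2183 and 1700 in U937, and 1458, 1850 and 1573 against 1544, 1988 and 1832 in HL-60. CHAF1B read 973, 1008 and 769 against 656 and 515 in MOLM-13, with a log2 fold change of −0.65 ± 0.19 (adjusted p 0.17). U937 libraries gave 553 and 846 against 961 and 955, and in HL-60 473, 502 and 585 against 511, 495 and 432. Both genes were below all controls in MOLM-13 and above all controls in U937.

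The fork genes encode the checkpoint mediator CLSPN, the TIMELESS and TIPIN pair that steadies the fork, and DTL, the substrate receptor that marks CDT1 for destruction. CLSPN (GRCh37 chr1:36185819-36235579) read 612 and 1590 in U937 pLKO and 3381 and 2869 in shRNF5, a log2 fold change of 1.66 ± 0.38 (adjusted p 0.035). Both shRNF5 values were well above both controls. Without pLKO replicate 2 the CLSPN change was 0.97. In MOLM-13 it read 3986, 3717 and 2585 against 2839 and 2430, and in HL-60 1875, 1651 and 1820 against 1940, 2046 and 2296. All HL-60 shRNF5 values were above all controls, but at 0.23 ± 0.12 the change did not pass (adjusted p 0.19).

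TIPIN (GRCh37 chr15:66628529-66679084) read 227 and 705 in U937 pLKO and 1158 and 911 in shRNF5, with a log2 fold change of 1.36 ± 0.44 (adjusted p 0.086). Without pLKO replicate 2 the TIPIN change was 0.54, and without pLKO replicate 3 it was 2.17. A ribosomal protein pseudogene on the same strand shares 21.1% of its exonic bases. Its partner TIMELESS was between −0.14 and 0.12 in the 3 lines. DTL read 1227 and 2092 in U937 pLKO against 2660 and 2334 in shRNF5, 3178, 4318 and 3545 against 3075 and 2608 in MOLM-13, and 2842, 2970 and 3259 against 2809, 2527 and 2102 in HL-60. It was above both controls in U937 and below all controls in the other lines, and was not called in any.

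**Figure D4:**
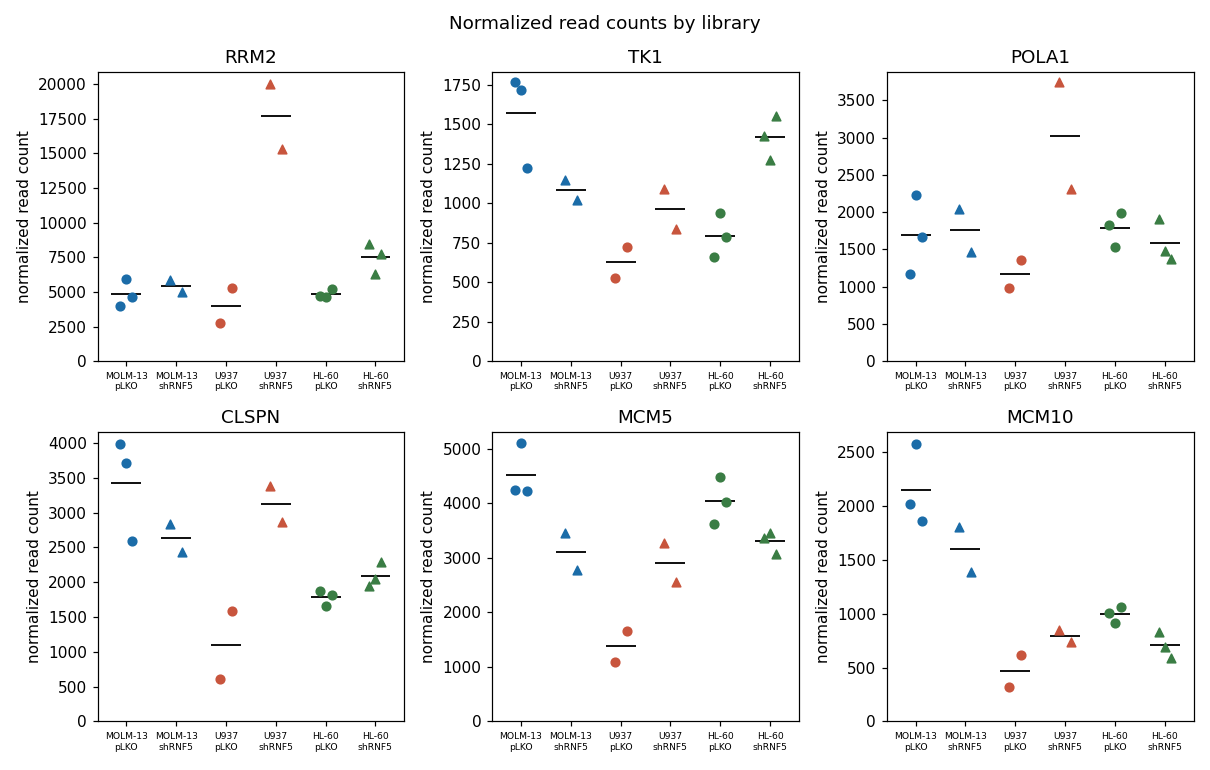
Normalized read counts of 6 DNA replication genes in every library (circles pLKO, triangles shRNF5) with the group mean as a bar and all axes from 0. RRM2 in U937 reaches 20003 and 15298 with shRNF5 against 2730 and 5297 in pLKO, while MCM10 in HL-60 falls below all its controls.

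Whether the lines differed in response was tested as the difference between their log2 fold changes in one limma fit over all 15 libraries, for 11072 genes. The 3 differences share libraries, because each line enters 2 of them. Against U937, MOLM-13 was lower for 29 of 43 genes and higher for 0, beside 8.48% and 6.95% of all genes. The median difference was −1.0, and all 43 differences were below 0. The largest was RRM2, at −2.03 ± 0.35 (adjusted p 0.0078), followed by CLSPN at −2.02 ± 0.42 (adjusted p 0.017) and GINS3 at −1.83 ± 0.47 (adjusted p 0.031). MCM5 differed by −1.64 ± 0.28 (adjusted p 0.0078). All 4 nucleotide supply genes, 7 of 10 loading genes and 5 of 6 activation genes passed. Of the 29, 4 were called again without U937 pLKO replicate 2, 3 without U937 shRNF5 replicate 1, 4 without MOLM-13 shRNF5 replicate 2 and 15 without MOLM-13 pLKO replicate 2.

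Against HL-60, U937 was higher for 20 of 43 genes and lower for 1, beside 19.1% and 18.1% of all genes. The median difference was 0.66. All 6 helicase subunits were among the 20, with MCM5 at 1.39 ± 0.26 (adjusted p 0.0022) and MCM4 at 1.23 ± 0.33 (adjusted p 0.013). GINS3 had the largest difference, 1.62 ± 0.44 (adjusted p 0.015), and RRM2, which rose in both lines, rose more in U937, by 1.59 ± 0.34 (adjusted p 0.0040). MCM10, which fell in HL-60, differed by 1.35 ± 0.34 (adjusted p 0.010). The gene that was lower was RFC4, at −0.63 ± 0.21 (adjusted p 0.040). Of the 20, 13 were called again without U937 pLKO replicate 2 and 10 without U937 shRNF5 replicate 1. The RFC4 call was lost without U937 pLKO replicate 3 or shRNF5 replicate 1, and with the length correction.

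Between MOLM-13 and HL-60, 2 genes were lower in MOLM-13 and 0 higher, beside 5.09% and 3.72% of all genes. At an unadjusted p under 0.05, 3 were lower and 0 higher by the same limma fit. The share of all genes at that limit is not given here, so these 2 counts cannot be set against it. The 2 genes that passed the adjusted limit were TK1, at −1.36 ± 0.28 (adjusted p 0.023), and RFC4, at −0.88 ± 0.20 (adjusted p 0.031). Both were called again without each U937 or HL-60 library and without each MOLM-13 control library, and neither without MOLM-13 shRNF5 replicate 1 or 2. A total of 20 genes differed in at least 2 of the 3 pairs of lines. The share of all genes that did so was not counted, and the pairs share libraries. Across the 43 genes the log2 fold changes of MOLM-13 and U937 had a Pearson r of 0.15 and a Spearman rho of −0.08. For U937 and HL-60 the values were 0.18 and 0.04. Genes are not independent replicates, and these values are a description only.

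**Figure D5:**
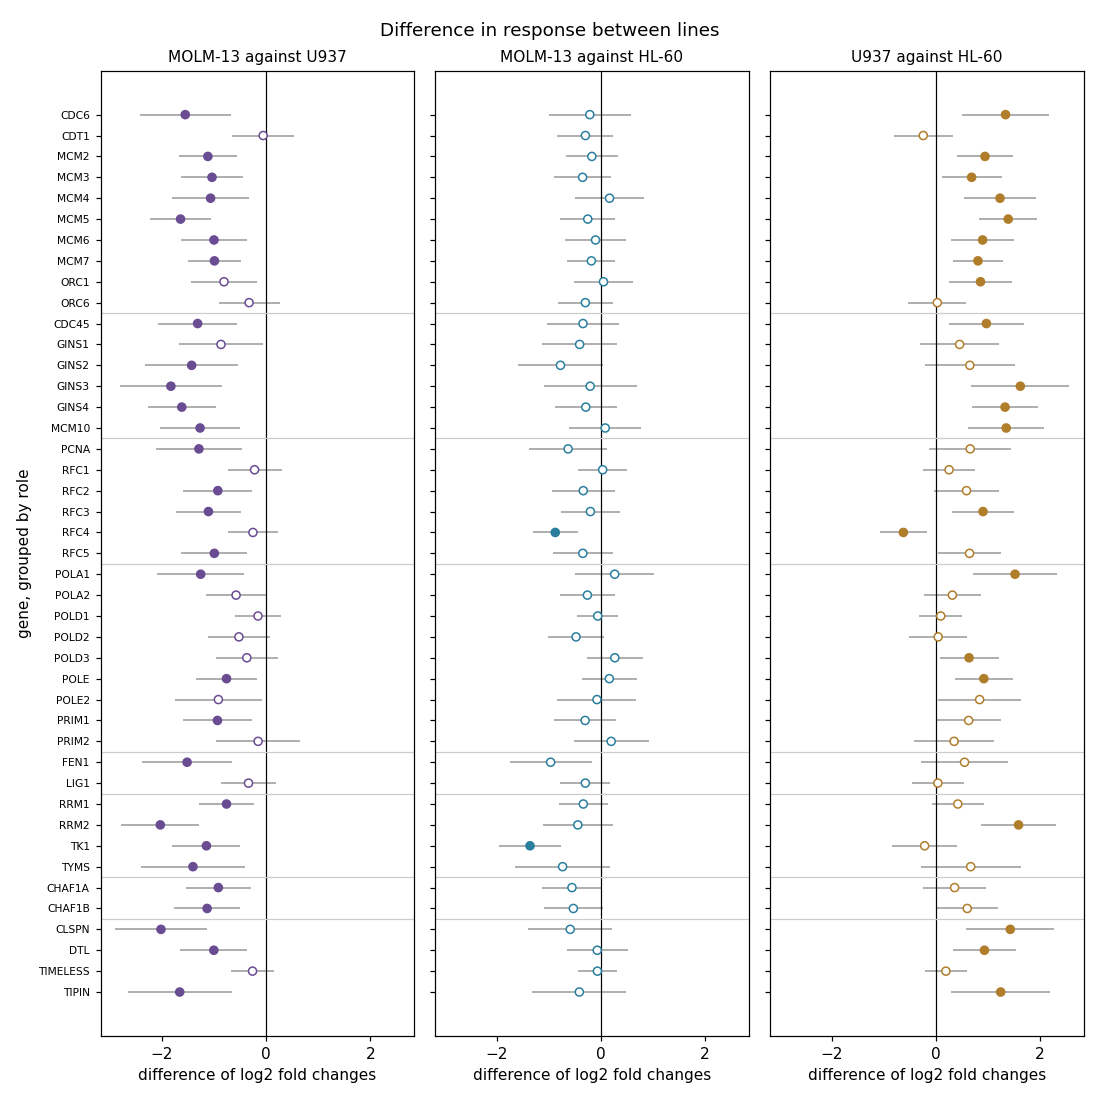
Differences between lines in the log2 fold change of each DNA replication gene (points) with 95% confidence intervals (lines), filled where the adjusted p was under 0.1. All 43 points lie below 0 for MOLM-13 against U937 and 29 are filled, while 2 are filled for MOLM-13 against HL-60 and 21 for U937 against HL-60.

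The rest of the replication machinery, the E2F and RB genes and the S-phase checkpoint were read beside the 43. Of 40 other replication genes, 0 were called higher and 1 lower in MOLM-13, with a median log2 fold change of −0.29. The gene was DUT, which removes dUTP before it reaches DNA, at 4569, 6236 and 5180 in pLKO and 2386 and 2242 in shRNF5 (−1.19 ± 0.16, adjusted p 0.040). In HL-60 DUT fell too, from 4995, 6371 and 5866 to 2434, 4204 and 2428 (−0.97 ± 0.20, adjusted p 0.0096). For U937 the libraries gave 4075 and 11806 against 4667 and 6485, and the controls enclosed the shRNF5 values. DUT and TK1, both in thymidine nucleotide metabolism, moved in opposite directions in HL-60.

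In U937, 2 of these 40 were called higher and 2 lower, beside 6.92% and 8.74% of all genes, with a median of 0.28. UHRF1, which carries DNA methylation through replication, rose from 608 and 1190 to 2386 and 1618 (1.21 ± 0.34, adjusted p 0.058), and the polymerase epsilon subunit POLE3 rose from 1334 and 1957 to 3501 and 2463 (0.86 ± 0.28, adjusted p 0.086). POLD4, the smallest polymerase delta subunit, fell from 148 and 99 to 39 and 36 (−1.67 ± 0.46, adjusted p 0.056), and the alternative clamp loader subunit CHTF18 fell from 2406 and 2294 to 1158 and 1301 (−0.94 ± 0.24, adjusted p 0.045). In HL-60, 8 were called higher and 2 lower, beside 13.6% and 12.3% of all genes, with a median of −0.06. The largest rises were POLD4, from 16, 13 and 8 to 28, 38 and 58, and the single-strand binding subunit RPA3, from 758, 756 and 818 to 1201, 1122 and 1614. The POLD4 values in HL-60 were very low, so the size of its rise is uncertain. The origin recognition subunit ORC3 fell in HL-60, from 1206, 1080 and 1198 to 621, 665 and 548 (−0.93 ± 0.13, adjusted p 0.0018).

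Of the 13 E2F and RB genes listed, 12 were tested in U937. There 4 were called higher and 0 lower, beside 6.92% and 8.74% of all genes. E2F2 rose from 398 and 606 to 1472 and 1171 (1.42 ± 0.29, adjusted p 0.027), and the repressor E2F8, itself an E2F target, rose from 901 and 1036 to 2108 and 1908 (1.05 ± 0.24, adjusted p 0.035). The others were RBL1 (0.99) and E2F3 (0.79), named after their values were seen. In HL-60, 2 were called higher, E2F1 and RBL2 (0.48 and 0.45), and 2 lower, E2F5 and TFDP2 (−2.54 and −0.84). The shares of all genes called there were 13.6% and 12.3%. In MOLM-13, 0 were called by limma. At an unadjusted p under 0.05 there was 1 in each direction, beside 8.53% of all genes higher and 8.46% lower.

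Of 10 checkpoint genes, CDC25A, the phosphatase that drives entry into S phase, was called higher in U937, from 526 and 1171 to 3224 and 2280 (1.79 ± 0.36, adjusted p 0.025). In HL-60 RAD9A rose (0.75 ± 0.15, adjusted p 0.0093) and the kinase ATR fell (−0.59 ± 0.18, adjusted p 0.046). In MOLM-13, 0 of 10 were called by limma. There 2 were lower and 0 higher at an unadjusted p under 0.05, beside 8.46% and 8.53% of all genes. Each of these lists was read against the shares of all genes called in the line, given above.

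Levels in the control libraries also differed between lines, as a description, since each line was normalized separately. Per 1000000 of summed values, the pLKO mean was highest in HL-60 for 24 of 43 genes, in MOLM-13 for 12 and in U937 for 7. It was lowest in U937 for 25, in MOLM-13 for 14 and in HL-60 for 4. The summed values of the 43 genes made up 5299 to 6449 per 1000000 in MOLM-13 pLKO, 4051 and 6654 in U937 pLKO and 6702 to 7336 in HL-60 pLKO. In U937 shRNF5 they made up 8836 and 7900 per 1000000, the highest of the 15 libraries.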

How the data were processed

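RNA-seq libraries of 3 lines were grouped by the construct in the sample labels. Per the study's methods and labels, adapters were trimmed with CUTADAPT, STAR aligned the reads to hg19, and featureCounts of the Subread package assigned them to genes. The deposited values are a score: read counts that the authors scaled within each line (edgeR, run by SARTools) and rounded, with 0 for genes failing their filter. The labels name a 3′ kit and the methods a directional poly(A) kit. Depth (9721070 to 63760000 reads) was estimated from the steps between low values and is approximate.

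Because the values are normalized, no count test was run. limma 3.58.1 (R 4.3.3) was fitted to log2(value + 1) with a mean-variance trend in each line, for the 13026 (MOLM-13), 13165 (U937) and 12570 (HL-60) genes above 0 in any library, with two-sided tests and Benjamini-Hochberg adjustment. The script was tested on simulated data. Alternatives covered the pseudocount, filter, threshold, variance model, scaling, transcript length, pairing and left-out libraries. Gene positions are GENCODE on GRCh37. Values in every library are given for the gene with the largest change in each role and line, for genes called in 2 or more lines or in opposite directions, and for up to 5 genes with the largest differences among those differing in 2 or more pairs of lines. Of the other lists, up to 2 called rises and 2 called falls per line are named. The genes and lists were chosen with earlier results of these data known. The summed value of the other-cell markers in U937 is not reported here.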

Additional observations from a re-analysis of the deposited data

Results flagged for a closer look

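Among the 19 genes whose values are given by rule, 31 differences between lines in the response to shRNF5 had an adjusted p under 0.1 in limma's test of the difference. These 19 were picked for large changes or large differences in these same data, so the 31 cannot be set against the shares of all genes. The counts over all 43 genes, given above with those shares, are larger. All values are differences of log2 fold changes, the first line minus the second. Of the 29 genes that differed between MOLM-13 and U937, 4 were called again without U937 pLKO replicate 2.

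For MOLM-13 against U937, the nucleotide and fork genes gave RRM2 −2.03, TK1 −1.15, CLSPN −2.02, TIPIN −1.66 and DTL −1.0. The loading and activation genes gave CDC6 −1.55, MCM5 −1.64, MCM4 −1.07, GINS3 −1.83, GINS2 −1.43 and MCM10 −1.27. The synthesis and chromatin genes gave PCNA −1.29, POLA1 −1.26, POLE −0.76, FEN1 −1.52, CHAF1A −0.92 and CHAF1B −1.13.

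For MOLM-13 against HL-60 the values were −1.36 for TK1 and −0.88 for RFC4.

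For U937 against HL-60 they were GINS3 1.62, RRM2 1.59, POLA1 1.52, CLSPN 1.43, MCM5 1.39, MCM10 1.35, CDC6 1.34, TIPIN 1.24, MCM4 1.23, DTL 0.93 and POLE 0.92, and RFC4 −0.63.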

How the results depend on the processing

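Of the counts and medians over the 43 genes under other settings, 247 stayed within their limits and 38 moved. The MOLM-13 count called lower (0) was 20 with library weights, beside 8.48% of all genes, and 3 with the replicate block, beside 2.72%. It was 19 with the block numbered as in the file names, beside 9.28%, and 1 in a fit over all libraries, beside 1.44%. The U937 count called higher (8) was 5 at an adjusted p under 0.05, 1 without the mean-variance trend, 28 in a fit over all libraries and 0 to 23 leaving out 1 library, where the median ran from 0.30 to 0.92. The HL-60 count called lower (1) was 2 with the length correction and 0 in a fit over all libraries, beside 11.4% and 9.07% of all genes. Leaving out 1 library, this count ran from 0 to 3, beside 6.87% to 13.1% of all genes. For the differences between lines that follow, the share of all genes under each setting is not given here. The count lower in MOLM-13 than U937 (29) was 16 at an adjusted p under 0.05 and 3 to 34 leaving out 1 library, and the count lower than HL-60 (2) was 12 with library weights and 0 to 5. The count higher in U937 than HL-60 (20) ran from 10 to 32, and the count lower (1) was 0 with the length correction and 0 to 1 leaving out 1 library.

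Single genes changed sign 34 times. With the length correction the log2 fold change was −0.0099 for POLA1 in MOLM-13, 0.065 for POLD2 in U937, and 0.062 for CDC6 and −0.014 for PCNA in HL-60, and the difference was −0.044 for MCM10 and −0.21 for POLE (MOLM-13 against HL-60) and 0.048 for TK1 (U937 against HL-60). With library weights it was −0.15 for POLA1 in MOLM-13, 0.025 for CDC6 in HL-60, −0.018 for MCM10 (MOLM-13 against HL-60) and −0.0018 for POLD2 (U937 against HL-60), which was −0.019 with upper-quartile rescaling. POLA1 in MOLM-13 was −0.16 with the block numbered as in the file names. Leaving out 1 library gave −0.16 to 0.32 for POLA1 and −0.41 to 0.0061 for POLE in MOLM-13, −0.34 to 0.16 for POLD2 in U937, and −0.086 to 0.091 for CDC6 and −0.011 to 0.15 for GINS2 in HL-60. The differences ran from −0.11 to 0.27 for MCM10, −0.048 to 0.37 for POLE, −0.19 to 0.049 for DTL and −0.48 to 0.062 for GINS3 (MOLM-13 against HL-60), and from −0.21 to 0.30 for POLD2 and −0.45 to 0.013 for TK1 (U937 against HL-60). PCNA kept its sign in HL-60, at 0.048 to 0.12. The causes were not tested.

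Each library was taken as its deviation from the mean of its group, over all genes tested in the line. Between same-numbered pLKO and shRNF5 libraries these deviations had correlations of −0.13 and −0.45 in MOLM-13 by the label numbers. By the file-name numbers they were 0.45 and 0.27. The 2 MOLM-13 shRNF5 libraries deviate by equal and opposite amounts, so each control has the same correlation with both, with opposite sign. In HL-60 the correlations were 0.39, 0.12 and −0.05. The replicate block in HL-60 gave 2 genes higher and 1 lower, the counts without it. With 2 pairs and numbers in conflict, whether the MOLM-13 libraries were paired was not established. No paired analysis was possible because the groups share 1 number in U937. Where 1 library was left in a group, it was assumed to vary like the others.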
